A study of Drosophila melanogaster with 6 samples.

Results

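Microtubules are hollow polymers of alpha-tubulin and beta-tubulin dimers, and gamma-tubulin forms the ring on which a new microtubule starts. Drosophila melanogaster carries several genes for each of the 3 proteins, and some of these isotypes are used mainly in 1 sex or tissue. In the ovary, microtubules carry RNAs from the nurse cells into the oocyte, position the oocyte nucleus and build the meiotic spindle, and the nurse cells load tubulin into the egg for the first divisions of the embryo. In the testis, a beta-tubulin of its own builds the meiotic spindle and the sperm tail.

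The 10 tubulin genes considered were chosen by name: alphaTub67C, alphaTub84B, alphaTub84D, alphaTub85E, betaTub56D, betaTub60D, betaTub85D, betaTub97EF, gammaTub37C and gammaTub23C. Of these, 9 were read from a table of 13216 genes and repeats, and alphaTub85E was not analysed here. Total RNA of ovaries was sequenced in 2 groups of 3 libraries. The GCNA null females carried a null allele of Gcna, made with a knock-in CRISPR construct, in a stock outcrossed for 10 generations to wBerlin. They were set against the wBerlin stock itself, called wild type. All females were collected at 0 to 2 days of age, fed wet yeast for 24 hours at 25 °C, and dissected at 1 to 3 days. The labels name no tissue-specific driver. Founder DNA that remained near the allele after outcrossing and the loss of Gcna cannot be told apart.

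The libraries held 38401723 to 55758180 counted reads in GCNA null and 41799533 to 47726399 in wild-type ovaries. Gcna, listed as CG14814, had 493, 428 and 520 normalized counts in GCNA null against 20676, 18292 and 19581 in wild-type libraries, so its level fits the label of every library. GCNA null replicates 1 and 2 were nearly alike, with a chi-square per degree of freedom of 1.66 over their reads against 26.9 to 100.4 for the other pairs within a group. They differed by little more than sampling noise and were counted as 1 sample, so means ± SD are over 2 GCNA null and 3 wild-type samples. The labels do not say whether the libraries of a group were made from separate flies, so that p-values may reflect technical spread alone. Markers of the female germline and of follicle cells were all present (7 of 7 and 6 of 6 with a mean of at least 10 normalized counts), as were 7 of 7 muscle markers, which the muscle sheath around the ovary could supply. Of 12 testis germline markers 4 were measured, and only fzo had a mean of at least 10. The normalized counts of the other 3, Mst87F, loopin-1 and S-Lap1, were at most 6.04 in any library.

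The alpha-tubulin and the beta-tubulin gene that most fly tissues use, alphaTub84B and betaTub56D, made up most of the tubulin RNA of the ovary. Levels of different genes are given as normalized counts per kb of annotated exon (the union of all exons). alphaTub84B, the main general alpha-tubulin, lies on 3R at 7086599 to 7088839 (BDGP6, the dm6 assembly, plus strand). It had 37240, 35375 and 45050 normalized counts per kb in GCNA null libraries, against 45470, 52755 and 51356 in wild-type libraries. In wild-type ovaries it ranked 59 by level per kb among 11515 protein-coding genes. betaTub56D, the main general beta-tubulin, lies on 2R at 19447319 to 19451600 (minus strand). It had 33172, 31832 and 37311 normalized counts per kb in GCNA null libraries and 41162, 43302 and 45176 in wild-type libraries, where it ranked 73. In both groups these genes stood first and second, and the next gene was 3.79 times lower in GCNA null and 4.26 times lower in wild-type ovaries. The ranges of alphaTub84B and betaTub56D overlapped in GCNA null libraries and were apart in wild-type libraries, where alphaTub84B was 1.15 times higher.

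**Figure D1:**
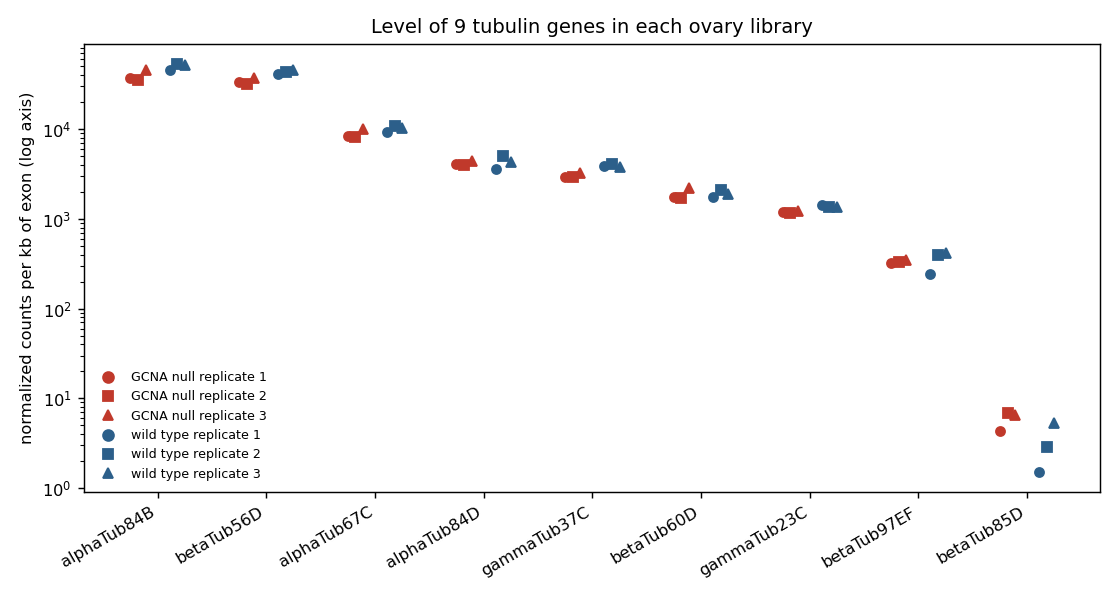
Level of each tubulin gene in every library, in normalized counts per kb of exon on a log axis, with GCNA null libraries in red on the left and wild-type libraries in blue on the right of each gene. The genes run from alphaTub84B, at 35375 to 52755, down to betaTub85D, at 1.52 to 6.86, in the same order in both groups.

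alphaTub67C came next in level per kb, and gammaTub37C stood below alphaTub84D in both groups; these are the isotypes known for egg and early embryo. alphaTub67C (3L, 9681268 to 9683370, plus strand) encodes a divergent alpha-tubulin supplied to the egg by the mother and needed for meiosis and the early nuclear divisions. It had 8357, 8185 and 10133 normalized counts per kb in GCNA null libraries and 9386, 10882 and 10169 in wild-type libraries, and the groups overlapped. gammaTub37C (2L, 19183863 to 19185726, minus strand) encodes the maternal gamma-tubulin, which acts in the female meiotic spindle and in the early embryo. It had 2955, 2897 and 3235 normalized counts per kb in GCNA null libraries and 3870, 4095 and 3804 in wild-type libraries, and every GCNA null library was below every wild-type one. gammaTub23C (2L, 2972891 to 2974858, plus strand), the gamma-tubulin of somatic cells and the male germline, had 1205, 1161 and 1213 per kb in GCNA null and 1426, 1364 and 1364 in wild-type libraries, again without overlap.

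Between these lay alphaTub84D and betaTub60D. alphaTub84D (3R, 7530753 to 7532732, plus strand) has no intron in the annotation and encodes a protein almost identical to that of alphaTub84B, 441.9 kb away. Its level was 4090, 4017 and 4361 normalized counts per kb in GCNA null libraries, against 3634, 5025 and 4355 in wild-type libraries. How reads that match both genes were counted was not given in sources used here, so the split between alphaTub84B and alphaTub84D is uncertain. betaTub60D (2R, 24305881 to 24313099, plus strand), a beta-tubulin known from developing muscle and other differentiating cells, had 1763, 1698 and 2227 per kb in GCNA null and 1771, 2077 and 1913 in wild-type libraries. Neither gene separated the groups. In wild-type libraries the ranges of alphaTub84D and gammaTub37C overlapped, so their order there is within the spread, whereas in GCNA null libraries they were apart.

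The 2 scarce isotypes were betaTub97EF and betaTub85D. betaTub97EF (3R, 27967008 to 27988384, minus strand), known from gut and blood cells and for its rise in the cold, had 321, 327 and 350.1 normalized counts per kb in GCNA null libraries and 246, 395 and 412 in wild-type libraries. Its spread was wide in wild-type ovaries, with a coefficient of variation of 26.1%, through the low value of replicate 1. betaTub85D (3R, 9408383 to 9410282, minus strand) is the beta-tubulin of the male germline, needed for the meiotic spindle and the axoneme of sperm. It had 4.37, 6.86 and 6.56 normalized counts per kb in GCNA null libraries, and 1.52, 2.87 and 5.33 in wild-type libraries. That is 55.3 times below betaTub97EF, its neighbour in the order, in GCNA null ovaries and 108 times below it in wild-type ovaries.

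betaTub85D was counted with 7, 16 and 12 reads in GCNA null replicates 1 to 3 and with 3, 5 and 9 reads in wild-type replicates 1 to 3. Reads were assigned to it in every library, but the groups overlapped. How reads that match several tubulin genes were counted was not given in sources used here. These few reads may thus not all be from betaTub85D. The gene did not reach 10 normalized counts in 3 libraries and was not tested. Scaled for depth, the summed reads were 1.93 times those of wild type (35 against 17 reads, exact 95% interval 1.05 to 3.67), and 2.08 times with GCNA null replicate 3 alone (12 reads, interval 0.908 to 4.63). These intervals cover counting error only, and the first one sums the nearly alike replicates 1 and 2.

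The make-up of each family was close in all libraries. Of the alpha-tubulin level per kb, alphaTub84B made up 75.0%, 74.4% and 75.7% in GCNA null libraries and 77.7%, 76.8% and 78.0% in wild-type libraries. alphaTub67C made up 16.8%, 17.2% and 17.0% in GCNA null and 16.0%, 15.8% and 15.4% in wild-type libraries, and alphaTub84D the rest. betaTub56D made up 94.1%, 94.0% and 93.5% of beta-tubulin in GCNA null libraries and 95.3%, 94.6% and 95.1% in wild-type libraries. The maternal gammaTub37C made up 71.0%, 71.4% and 72.7% of gamma-tubulin in GCNA null libraries and 73.1%, 75.0% and 73.6% in wild-type libraries. In each family the leading isotype thus took a slightly smaller share in every GCNA null library than in any wild-type library, by 2.35, 1.22 and 1.93 percentage points for alphaTub84B, betaTub56D and gammaTub37C. An exact two-sided permutation test gave p = 0.2 for each, the smallest p that 2 against 3 samples allow (0.267 adjusted over 4 such tests), so the design cannot reach the threshold. With alphaTub84B and alphaTub84D counted together as 1 isotype, the difference of the alpha-tubulin share was -1.24 percentage points, and without GCNA null replicates 1 and 2 that of gammaTub37C was -1.18. The summed alpha-tubulin level was 1.45 ± 0.0605 times the summed beta-tubulin level in GCNA null ovaries and 1.41 ± 0.0763 times in wild-type ovaries (SD, n = 2 and 3, exact permutation p = 0.6), a difference within the spread. The shares and sums leave out alphaTub85E.

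**Figure D2:**
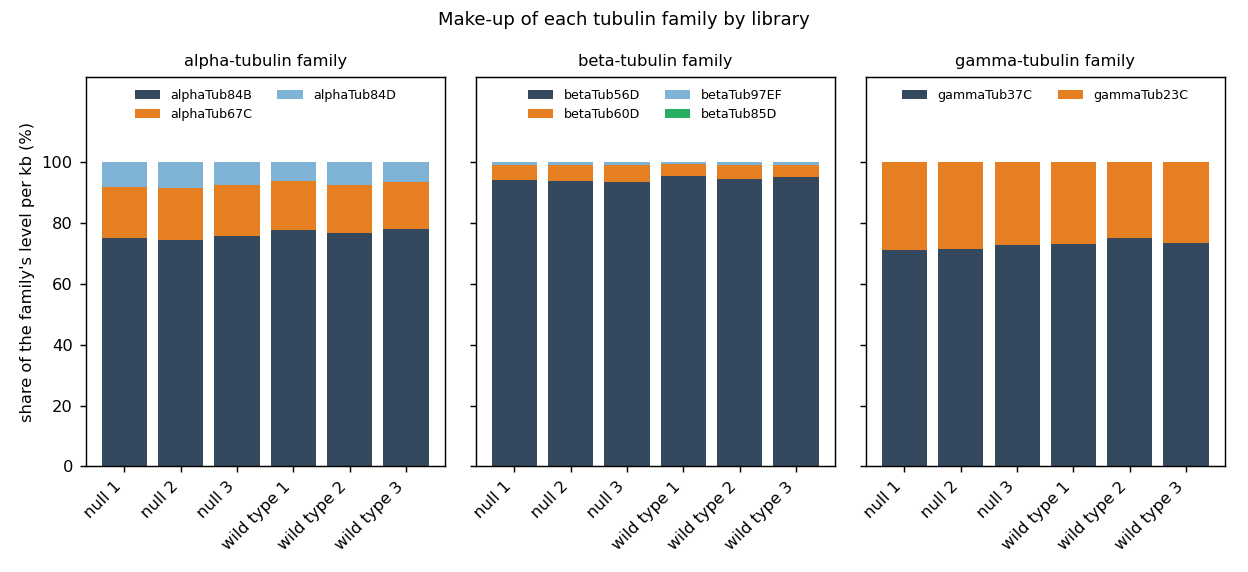
Share of each isotype in its family's summed level per kb, in percent, 1 bar per library with GCNA null on the left and wild type on the right. alphaTub84B fills 74.4% to 78.0%, betaTub56D 93.5% to 95.3% and gammaTub37C 71.0% to 75.0% of the bars.

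Between GCNA null and wild-type ovaries, gammaTub37C alone among the tubulins passed the test. The test was limma on log2 of the normalized count plus 1, two-sided, with Benjamini-Hochberg adjustment over the 10132 rows that reached 10 normalized counts in 3 or more libraries, and 8 of the 9 tubulin genes met that filter. Of these 8, 1 was lower and none was higher; over all tested rows 2.11% were lower and 4.25% higher, 6.37% in all. With this single call the tubulins give no count that can be read against that background. The log2 difference was negative for 7 of the 8 (median -0.18), against 50.1% of all tested rows (median -0.00045). The values of the 2 groups were apart in 4 of 8, all with GCNA null lower. Over all tested rows the groups were apart in 38.9%, with GCNA null lower in 19.3% and higher in 19.6%, and the nearly alike pair of GCNA null libraries makes such separation more frequent. By adjusted p, 7.39% of all tested rows were lower with 6 separate libraries and 5.35% in DESeq2, and 3 of the 8 tubulins were lower in each of these fits (gammaTub37C, gammaTub23C and betaTub56D).

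gammaTub37C had 4811, 4717 and 5266 normalized counts in GCNA null libraries and 6301, 6667 and 6193 in wild-type libraries. It was lower in all 3 GCNA null libraries, with means of 5015 ± 355 and 6387 ± 248 (SD, n = 2 and 3). The log2 difference was -0.35 (SE 0.07, 95% interval -0.51 to -0.19, limma adjusted p = 0.033), a level 21.5% lower with an interval of 12.3% to 29.8%. The call was lost without wild-type replicate 1, 2 or 3 (limma adjusted p = 0.092, 0.081 and 0.088), without GCNA null replicates 1 and 2 together (0.194), and when quantile normalization was used (0.055). It was kept with 6 separate libraries (0.0056) and in DESeq2 on the recovered reads (0.00015). In whole ovaries, fewer cells of a type and less RNA per cell cannot be told apart. The summed level of the 7 female germline markers was 174953 to 181753 normalized counts in GCNA null and 186592 to 216378 in wild-type libraries. None of the 7 passed the test, and none was at 0. The RNA helicase gene vas had 14974, 15007 and 16753 normalized counts in GCNA null and 20295, 18171 and 21868 in wild-type libraries (log2 difference -0.34, limma adjusted p = 0.103). The ovarian tumor gene otu had 29224, 28538 and 33721 in GCNA null and 39968, 38149 and 40804 in wild-type libraries (log2 difference -0.34, limma adjusted p = 0.091). Both were lower in every GCNA null library than in any wild-type one, as were 19.3% of all tested rows. The other 5 overlapped between the groups, with log2 differences from -0.22 (orb) to 0.033 (aub). Among these 5 was osk, the most abundant of the 7 and so the largest part of the summed level. It had 69843 to 80545 normalized counts in GCNA null and 71338 to 91599 in wild-type libraries. The part of the germline in the lower gammaTub37C was not tested.

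gammaTub23C, the general gamma-tubulin, missed the threshold. It had 2230, 2148 and 2245 normalized counts in GCNA null libraries and 2639, 2523 and 2523 in wild-type libraries, with a log2 difference of -0.21 (SE 0.06, 95% interval -0.34 to -0.072, limma adjusted p = 0.091). It had the smallest spread of the 9 tubulins, with a coefficient of variation of 1.78% in GCNA null and 2.61% in wild-type ovaries. With 6 separate libraries and in DESeq2 its adjusted p was 0.019 and 0.021.

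betaTub56D had 61999, 59494 and 69734 normalized counts in GCNA null libraries and 76932, 80932 and 84435 in wild-type libraries. The groups were apart, but the log2 difference of -0.31 did not pass (SE 0.11, 95% interval -0.59 to -0.034, limma adjusted p = 0.176). It passed with 6 separate libraries (0.040) and in DESeq2 (0.0038). alphaTub84B had 65244, 61978 and 78928 normalized counts in GCNA null libraries and 79664, 92427 and 89976 in wild-type libraries. Its groups were barely apart, and its log2 difference of -0.30 had an interval of -0.64 to 0.040 (limma adjusted p = 0.265, and 0.310 with alphaTub84D added to it). In both genes GCNA null replicate 3 lay between the other GCNA null libraries and the wild type.

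The 4 remaining tubulins overlapped between the groups. alphaTub67C had 13513, 13235 and 16385 normalized counts in GCNA null libraries and 15178, 17595 and 16444 in wild-type libraries (log2 difference -0.15, 95% interval -0.40 to 0.11, limma adjusted p = 0.463). betaTub60D had a log2 difference of 0.035 (interval -0.25 to 0.32), alphaTub84D of -0.033 (-0.35 to 0.28) and betaTub97EF of -0.023 (-0.57 to 0.52). The sign of these 4 was not stable: each turned in at least 1 setting that left out a sample. The intervals of alphaTub67C and betaTub97EF include the -0.35 of gammaTub37C. That of betaTub60D does not, and that of alphaTub84D ends at about that value. The interval of gammaTub37C itself, -0.51 to -0.19, overlaps the intervals of all 4, and differences between tubulin genes were not tested.

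**Figure D3:**
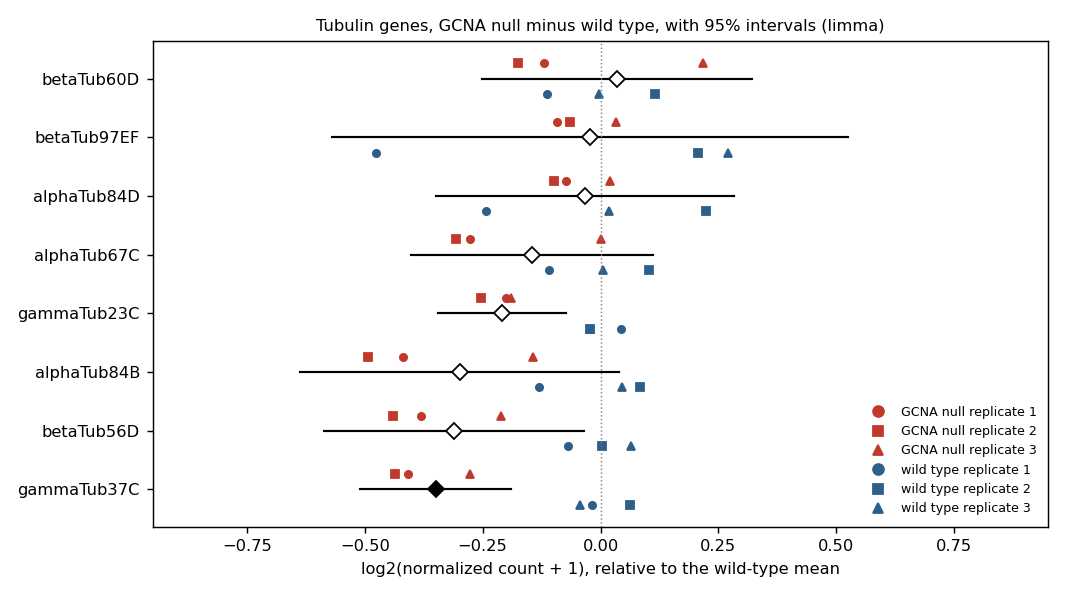
Each tested tubulin gene on log2 of the normalized count plus 1, relative to its wild-type mean, with GCNA null libraries in red above and wild-type libraries in blue below; diamonds and lines are the limma difference and its 95% interval, and the filled diamond marks an adjusted p under 0.05. gammaTub37C, at -0.35, is the filled one, and the intervals of betaTub60D, betaTub97EF, alphaTub84D, alphaTub67C and alphaTub84B include 0.

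Within GCNA null, the nearly alike replicates 1 and 2 stood apart from replicate 3 in several tubulins, and so did the yolk and eggshell genes among the follicle cell markers. betaTub60D had 4439 and 4275 normalized counts in replicates 1 and 2 and 5608 in replicate 3, against 4459 to 5229 in wild-type libraries. Cp36, a chorion gene, had 75297, 71698 and 208252 in GCNA null replicates 1 to 3, against 186380 to 244807 in wild-type libraries. The vitelline membrane gene Vm26Aa had 62479, 58567 and 110258 in GCNA null and 122864 to 164630 in wild-type libraries, and the yolk protein gene Yp1 had 197678, 193969 and 319958 in GCNA null and 270548 to 332138 in wild-type libraries. The other 3 of the 6 follicle cell markers differed less among the GCNA null libraries. tj had 5924, 5869 and 6057 in GCNA null and 5366 to 5707 in wild-type libraries, Fas3 had 2710, 2721 and 3045 in GCNA null and 1819 to 2362 in wild-type libraries, and slbo had 144, 118 and 142 in GCNA null and 122 to 182 in wild-type libraries. tj and Fas3 were thus higher in every GCNA null library without passing the test (limma adjusted p = 0.301 and 0.083). Yp1, Vm26Aa and Cp36 make up most of the summed level of the 6 markers. The summed level of all 6 was 332941 to 647713 in GCNA null and 595357 to 707702 in wild-type libraries. The summed level of the 7 muscle markers was 19754 to 34639 in GCNA null and 22016 to 39606 in wild-type libraries. It was lowest in GCNA null replicate 3. The part of these cell types in the tubulin levels was not tested. With GCNA null replicate 3 alone set against wild type, the log2 difference was -0.28 for gammaTub37C, -0.21 for betaTub56D, -0.19 for gammaTub23C, -0.14 for alphaTub84B and 0.00078 for alphaTub67C.

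gamma-Tubulin works in a ring complex with Grip proteins, and 6 of the 7 complex genes considered were measured. Of these 6, 1 was lower and none higher, while 2.11% of all tested rows were lower and 4.25% higher. This single call cannot be read against those shares. All 6 had a negative log2 difference, as had 50.1% of all tested rows (median -0.050, against -0.00045). The median absolute log2 difference over all tested rows was 0.143. The gene that fell was Grip71, which encodes the subunit that brings the complex to the spindle. It had 6286, 6175 and 6619 normalized counts in GCNA null libraries and 7911, 7790 and 7595 in wild-type libraries, without overlap (log2 difference -0.27, SE 0.06, limma adjusted p = 0.039). Its call was lost without any single wild-type library (0.124, 0.085 and 0.102), without GCNA null replicate 3 (0.065), without replicates 1 and 2 (0.234), with no filter (0.0503), with quantile normalization (0.061), in edgeR (0.052) and in limma-voom (0.052). Grip71 overlaps Irk3 on the other strand, so its reads may not all be its own. The log2 differences of the other 5 genes lay between -0.13 (Grip128) and -0.018 (Grip163), and Grip75, Grip84, Grip91 and Grip163 overlapped between the groups.

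**Figure D4:**
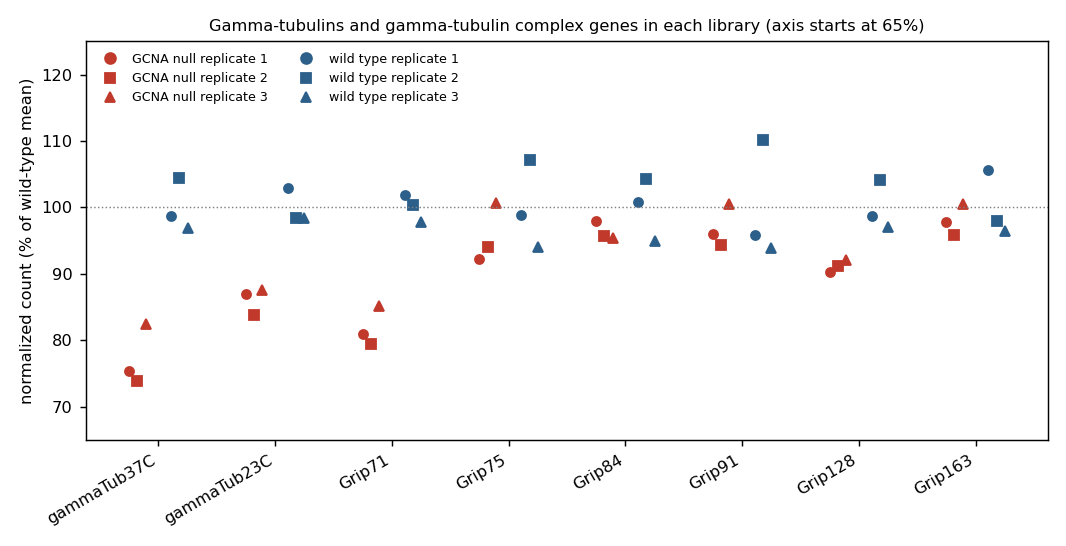
Normalized counts of both gamma-tubulin genes and 6 Grip genes in each library, as a percentage of the wild-type mean, on an axis that starts at 65%, with GCNA null in red on the left and wild type in blue on the right of each gene. The GCNA null libraries lie below all wild-type libraries for gammaTub37C, gammaTub23C, Grip71 and Grip128, of which gammaTub37C and Grip71 passed the test.

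Augmin, which brings gamma-tubulin to existing spindle microtubules, is built from 8 subunits, and all were tested. With limma dgt2 was higher and none was lower, while 4.25% of all tested rows were higher and 2.11% lower. With 6 separate libraries 1 was higher and 2 lower, and in DESeq2 1 was higher and 1 lower. Over all tested rows 16.6% and 12.8% were called in these fits. Of the 8 log2 differences 6 were negative (median -0.12), against 50.1% of all tested rows. dgt2 had 1694, 1752 and 1556 normalized counts in GCNA null libraries and 1222, 1294 and 1169 in wild-type libraries (log2 difference 0.42, SE 0.08, limma adjusted p = 0.035). The groups were apart, but the call was lost without any single wild-type library (0.107, 0.062 and 0.112), without GCNA null replicate 3 (0.051) and without replicates 1 and 2 (0.211). dgt2 overlaps escl on the same strand, so its count is uncertain.

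The genes that fold tubulin showed no call. Over all tested rows 16.6% were called with 6 separate libraries and 12.8% in DESeq2, the background for the counts given here for those fits. Of 20 chaperonin, prefoldin and tubulin cofactor genes none passed with limma or edgeR, 3 had an unadjusted p under 0.05 (against 23.1% of all tested rows), and with 6 separate libraries 1 was higher and 1 lower (1 lower in DESeq2). The log2 difference was negative for 15 of 20 (median -0.11), against 50.1% of all tested rows (median -0.00045). The most abundant members, the chaperonin subunits CCT2 (listed as CG7033) and CCT6 (listed as Tcp-1zeta), had log2 differences of -0.14 and -0.11, with means of 38745 ± 2343 and 23275 ± 1701 normalized counts in GCNA null and 42802 ± 1295 and 25045 ± 1830 in wild-type ovaries (SD, n = 2 and 3).

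Enzymes that modify tubulin, proteins that bind or cut microtubules, motors and centrosome proteins also held no call in edgeR or in limma on the 5 samples. Among the modifying enzymes 10 were tested, 3 had an unadjusted p under 0.05 (23.1% of all tested rows did), and the median was -0.020; with 6 separate libraries 2 were higher and 1 lower, and in DESeq2 likewise 2 and 1. The most abundant, the tubulin ligase-like genes TTLL4A (listed as CG16833) and TTLL5 (listed as CG31108), had log2 differences of -0.090 and 0.032. NnaD had the highest log2 difference of the 10, at 1.10 (limma adjusted p = 0.095), while 5 of the 10 were negative. It had 394.5, 385 and 188 normalized counts in GCNA null libraries and 137.5, 121.6 and 119.9 in wild-type libraries, without overlap. Of 24 microtubule-associated and severing proteins, 4 had an unadjusted p under 0.05, a smaller share than the 23.1%, and the median was -0.012 (2 higher and 1 lower with 6 separate libraries, 1 and 1 in DESeq2). msps, a microtubule polymerase, had a log2 difference of -0.041, and stai, the stathmin that binds free tubulin dimers, of 0.27 (limma adjusted p = 0.099). stai had 21918, 22648 and 20872 normalized counts in GCNA null libraries and 19006, 17824 and 16783 in wild-type libraries, without overlap. It passed with 6 separate libraries (limma adjusted p = 0.021), also with the replicate block (0.038), and in DESeq2 (0.0052). stai overlaps 2 annotated features on the same strand, so its count is uncertain.

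Of 18 motors and adaptors, 2 had an unadjusted p under 0.05 (against 23.1% of all tested rows), and the median was -0.036 (1 lower with 6 separate libraries, 1 higher in DESeq2). The dynein light chain gene ctp and the dynein heavy chain gene Dhc64C had log2 differences of 0.13 and -0.22. Of 13 centriole and centrosome genes none had an unadjusted p under 0.05 with limma, and none passed with 6 separate libraries, edgeR or DESeq2; the median was 0.065. The log2 differences were -0.031 for polo, a mitotic kinase, and 0.064 for Cp190, whose product binds chromatin and centrosomes. Over all 100 tested genes of these lists, 1 was higher and 1 lower, or 2%, against 6.37% of all tested rows. The median was -0.034.

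**Figure D5:**
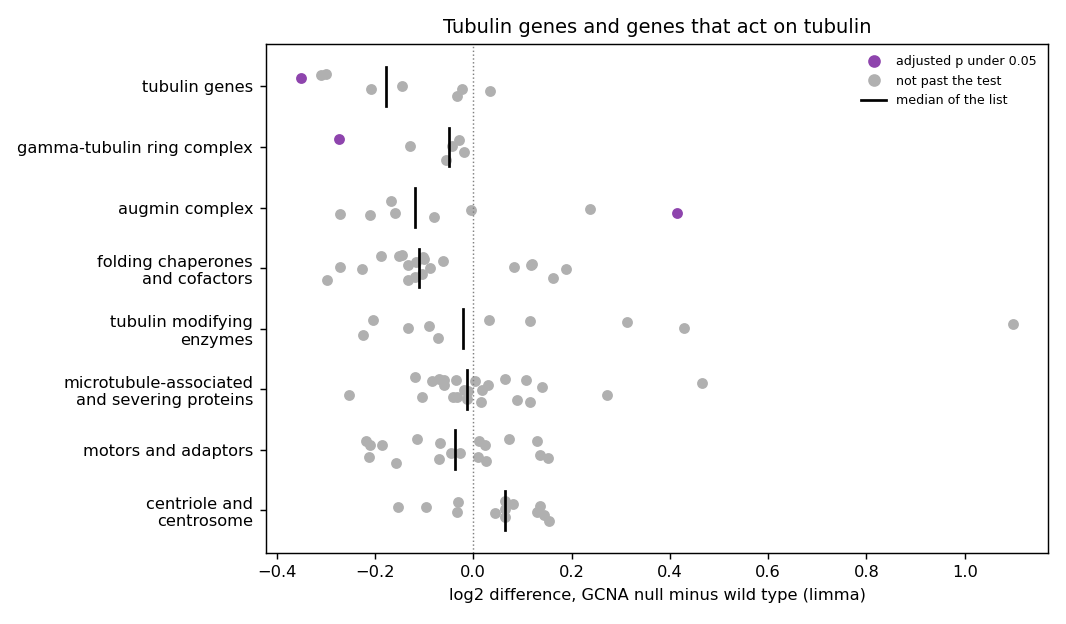
Log2 difference between GCNA null and wild type of every tested tubulin gene and of the tested genes of 7 groups that act with tubulin, 1 point per gene, with a black line at each median; purple marks an adjusted p under 0.05. gammaTub37C (-0.35), Grip71 (-0.27) and dgt2 (0.42) are the purple points, and the grey point farthest right is NnaD at 1.10.

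A pair of further tubulin-like genes was near the limit of counting. betaTub65B, listed as CG32396, had 16.1, 15.0 and 7.05 normalized counts in GCNA null libraries and 13.1, 15.9 and 13.1 in wild-type libraries, and the groups overlapped (log2 difference -0.37, limma adjusted p = 0.650). CG7794, an alpha-tubulin-like gene, had 2.3, 1.58 and 4.03 normalized counts in GCNA null libraries and 1.87, 3.17 and 5.45 in wild-type libraries, and was not tested.

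The genes whose values ran most like those of gammaTub37C were mRpS31, Nup37 and Bulli (listed as CG8270). Likeness was measured as the root mean square distance between log2 values, each row centred over the 6 libraries. It was taken among 8497 rows of genes and repeats with a mean of at least 50 normalized counts. The distance was 0.0215, 0.0239 and 0.0242 for mRpS31, Nup37 and Bulli. mRpS31, a mitochondrial ribosomal protein gene, had 1763, 1762 and 1916 normalized counts in GCNA null libraries and 2383, 2526 and 2295 in wild-type libraries. Among the other tubulins, betaTub56D was nearest to gammaTub37C, at 0.0601 and place 69. The genes nearest to alphaTub84B were DppIII, a dipeptidyl peptidase, ValRS (listed as Aats-val), a tRNA synthetase, and Pbgs, of heme synthesis, at 0.0211, 0.0261 and 0.0314, with betaTub56D at place 45 (0.0565) and alphaTub84D, its near copy, at place 2326 (0.182). These distances describe 6 libraries of which a pair is nearly alike.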

How the data were processed

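Per the labels' protocols, strand-specific libraries were made from DNase-treated total RNA (18 nt upwards) after removal of ribosomal RNA. CASAVA 1.8.2, STAR 2.5, DESeq2 and dm6 are named in the submitters' processing notes; annotation, counter and counting strand were not given in sources used here. The deposited signal is a read count for each gene or repeat, scaled by a size factor of its library. All values (100%, within 1e-06) were whole multiples of 1 step per library, which recovered whole reads.

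Groups came from the sample titles. The members and gene lists were chosen with earlier results of these data known. limma 3.58.1 (R 4.3.3, trended empirical Bayes) was fitted to log2(value + 1) with 5 samples and no block, a scale that understates changes of scarce RNAs; rows passing an adjusted p of 0.05 are called. The fit was tested on simulated data with changes larger than any found for the tested tubulins, so that test does not show how well such small changes are called. Exon lengths and coordinates came from the Ensembl BDGP6 annotation, to which 99% of gene rows matched by symbol or synonym. No annotated gene overlaps any of the 9 tubulin genes measured. Besides dgt2 and stai, the named list genes CG7033, CG31108, ctp, Dhc64C and CG32396 overlap annotated features on the same strand, so their counts are less certain. Alternatives were edgeR 4.0.16 (653 rows called against 645), DESeq2 1.42.0 and limma-voom on recovered reads, other pseudocounts, filters and scalings, 6 separate libraries with and without a replicate block, each library left out, and other gene lengths. Summing alphaTub84B and alphaTub84D was added after seeing the data. Named genes were all tubulins, Gcna, up to 6 called members of each list by adjusted p or its 2 most abundant, and the 3 genes nearest to alphaTub84B and gammaTub37C; Cp36, Grip128, Grip163, NnaD and the marker genes of germline, follicle cells and testis were named after their values were seen.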

Additional observations from a re-analysis of the deposited data

How the results depend on the processing

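With 6 separate libraries 1684 rows were called (1117 with the replicate block), and with DESeq2 1297, against 645; leaving out single libraries gave 289 to 639, and leaving out GCNA null replicates 1 and 2 together 146. Over the tubulin-related lists 2 genes were called, against 13 with 6 separate libraries, 6 with the block, 10 with DESeq2, 1 each with no filter, quantile normalization, edgeR and limma-voom, 0 to 2 without single libraries and 0 without GCNA null replicates 1 and 2. gammaTub37C missed the threshold with quantile normalization (-0.3125) and ranged from -0.42 to -0.32 without single libraries (-0.28 without GCNA null replicates 1 and 2). betaTub56D (-0.34 and -0.31) and gammaTub23C (both -0.21) passed with 6 separate libraries and with DESeq2; with the block their adjusted p was 0.072 and 0.051, and that of gammaTub37C 0.030. Same-numbered libraries correlated at -0.18, 0.073 and -0.094 in their deviations from group means. Whether replicate numbers pair the samples cannot be decided from these values, because GCNA null replicates 1 and 2 are nearly alike. Signs turned for alphaTub84D (0.0058) and polo (0.012) with quantile normalization and for betaTub60D with 6 separate libraries, with or without the block (-0.026). Leaving out GCNA null replicates 1 and 2 gave 0.00078 for alphaTub67C, 0.020 for alphaTub84D and 0.034 for betaTub97EF. Leaving out single libraries gave -0.15 to 0.080 for alphaTub84D, -0.15 to 0.093 for betaTub60D, -0.26 to 0.11 for betaTub97EF, -0.098 to 0.0038 for msps, -0.053 to 0.012 for polo, -0.42 to 0.15 for CG32396, and -0.0067 to 0.079 for the difference in the alpha to beta ratio. The cause was not tested. Settings that keep 1 GCNA null sample assume that it varies like wild type. The order of the 9 levels was the same with all 4 length measures. Counting error is large for betaTub85D, CG32396 and CG7794.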
